A study of Mus musculus with 18 samples.

Results

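TNF is an inflammatory cytokine, and the 10 genes described here are Tnf, its receptors Tnfrsf1a and Tnfrsf1b, and genes that NF-kB switches on and that then restrain or relay the response (Tnfaip3, Tnip1, Nfkbia, Nfkbie, Nfkbiz, Birc3 and Relb). They were taken by gene symbol from a table of 52636 genes, and each symbol matched 1 row. RNA was sequenced from mouse epidermal cells of 6 groups with 3 columns each. FlFl mice carried loxP-flanked alleles of Zfp36 (Zfp36 fl/fl). In DK14 mice (Zfp36 ΔK14) the same alleles were deleted by a Cre under the human keratin 14 promoter, which is active in basal keratinocytes, and all mice were C57BL/6 littermates by the study's methods. Zfp36 encodes tristetraprolin (TTP), which binds AU-rich elements in the 3′ untranslated region (UTR) of mRNAs and speeds their decay. Tnf mRNA is its best known target.

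Each genotype was sampled as mock skin, as treated skin and as tumors. By the study's methods, treated mice were 8 weeks old when the protocol began and received 200 nmol of the mutagen DMBA in each of its initiating applications, followed by 6.5 nmol of the phorbol ester TPA per application for 12 to 40 weeks. Treated skin was the nontumoral skin beside the papillomas, although the labels call its cells treated tumoral keratinocytes. The age and vehicle of the mock mice are not given in the sources used here. The methods describe sorting for EpCAM+ cells without CD45, CD140a and CD31, whereas the source named in the labels is skin. How many animals went into a library is not stated, so a p-value measures only the spread between these libraries.

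TNF binds 2 receptors. Tnfrsf1a (TNFR1) is found on most cells and recruits adaptors and ubiquitin ligases that switch on the IKK kinase, while Tnfrsf1b (TNFR2) is known mainly from leukocytes and endothelium. IKK marks the IkB proteins for destruction, NF-kB enters the nucleus, and among its first products are new IkB proteins and ubiquitin-editing enzymes that end the signal. In skin these brakes are known to limit inflammation driven by keratinocytes.

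The columns of mock DK14 replicates 2 and 3 were identical in all 52636 genes and were used once, which left 17 libraries with 2808550 to 9617985 counts. Zfp36 ran from 152 to 716 CPM (counts relative to the library total, after TMM scaling of library sizes) in FlFl and from 10.1 to 38.6 CPM in DK14, and no FlFl library overlapped with a DK14 library. Keratinocyte markers were high, with Krt5 at 1427 CPM or more and Epcam at 87.9 CPM or more. The leukocyte marker Ptprc, which encodes CD45, stayed at or under 1.51 CPM. Of the fibroblast markers, Dcn ran from 0.19 to 976 CPM and Col1a1 from 17.1 to 727 CPM. Some libraries stood apart. Replicate 1 of both mock groups held 237 and 139 CPM of Krt1 against 2189 CPM or more in the other mock libraries. Its 7 fibroblast markers summed to 1360 and 1040 CPM, within the 559 to 1750 CPM of the other mock libraries. In treated skin these markers summed to 402 to 650 CPM in FlFl and 468 to 962 CPM in DK14. In tumors they summed to 89.5 to 208 CPM in FlFl and 36.7 to 407 CPM in DK14, below treated skin of FlFl and of DK14. FlFl tumor replicate 1 had the fewest counts of all libraries. Its 8 keratinocyte markers summed to 32100 CPM, against 9390 and 10800 CPM in the other FlFl tumors and 25900 to 26300 CPM in DK14 tumors. Treated skin held 5720 to 14100 CPM of them in FlFl and 5000 to 21200 CPM in DK14. The part of these sums in the member levels was not tested. Members whose call changed without mock replicate 1 or FlFl tumor replicate 1 are named beside the result.

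Per kilobase of merged exons, Nfkbia was the most abundant of the 10 transcripts in every group, at 265 to 454 CPM per kb as a group mean. Nfkbiz and Tnfaip3 held ranks 2 and 3 in mock and in treated skin of both genotypes. Tnf moved most in this order. It ranked 8 of 10 in mock FlFl skin at 5.02 CPM per kb and 2 of 10 in DK14 tumors at 83.6 CPM per kb. Tnfrsf1b ranked last in 5 of the 6 groups. In DK14 tumors it reached 6.44 CPM per kb, above Relb and Nfkbie.

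**Figure D1:**
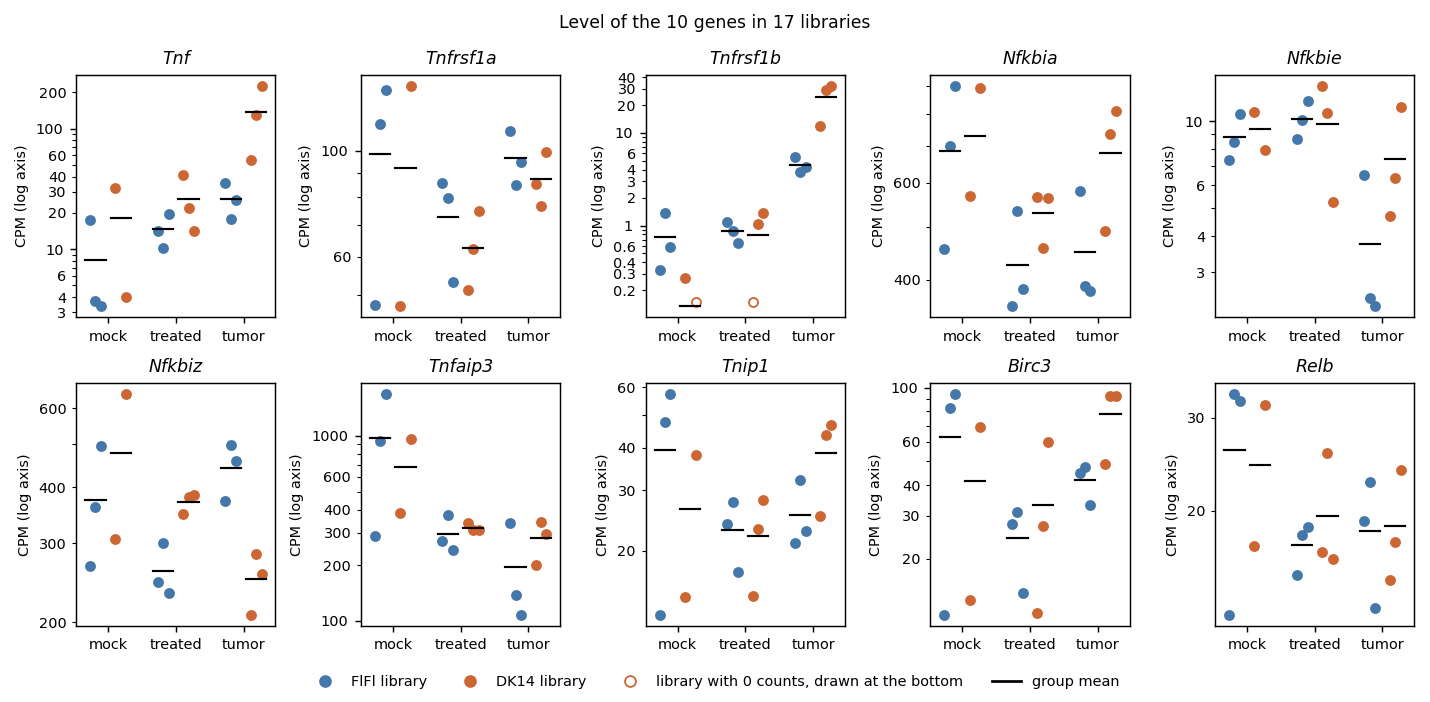
CPM of the 10 genes in each of the 17 libraries (log axis, 1 point per library, bar at the group mean), by stage and genotype. The 3 DK14 tumor libraries lie above every other library for Tnf (55 to 228 CPM) and Tnfrsf1b (11.9 to 32.5 CPM), while mock libraries scatter widely for Tnfaip3, Tnip1, Birc3 and Relb.

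The AU-rich elements of these mRNAs are shown first because TTP, the protein removed in DK14, acts through them. Motifs were counted in the longest annotated 3′ UTR, as the heptamer TATTTAT and the nonamer TTATTTATT, on the sense strand and with overlaps allowed. Each nonamer contains a heptamer. Among 20939 genes with an annotated 3′ UTR, 27.6% held at least 1 heptamer, 7.66% at least 1 nonamer and 0.201% at least 5 nonamers. Tnf held 8 heptamers and 5 nonamers in 764 bases, Birc3 held 3 and 3 in 1525 bases, and Tnfaip3 and Nfkbia each held 2 and 1. The other 6 genes (Tnfrsf1a, Tnfrsf1b, Tnip1, Nfkbie, Nfkbiz and Relb) held no heptamer, although Nfkbiz held 4 and Tnfrsf1b 2 of the shorter pentamers (ATTTA). Both motif counts of Birc3 fell to 1 in the shorter of its annotated UTRs. A motif match is a description of the sequence and not a measured binding site. The 30 bases with the most nonamers of each gene are printed below from GENCODE M21 transcripts (GRCm38), on the minus strand for all 4, with nonamers in capitals.
Tnf, chr17:35199678-35199707: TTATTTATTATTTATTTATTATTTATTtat
Birc3, chr9:7857117-7857146: TTATTTATTTATTtaaaagatTTATTTATT
Tnfaip3, chr10:19001754-19001783: tTTATTTATTatgaacttccaagttattta
Nfkbia, chr12:55489618-55489647: acctaatgaaaggaccacgttTTATTTATT

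**Figure D2:**
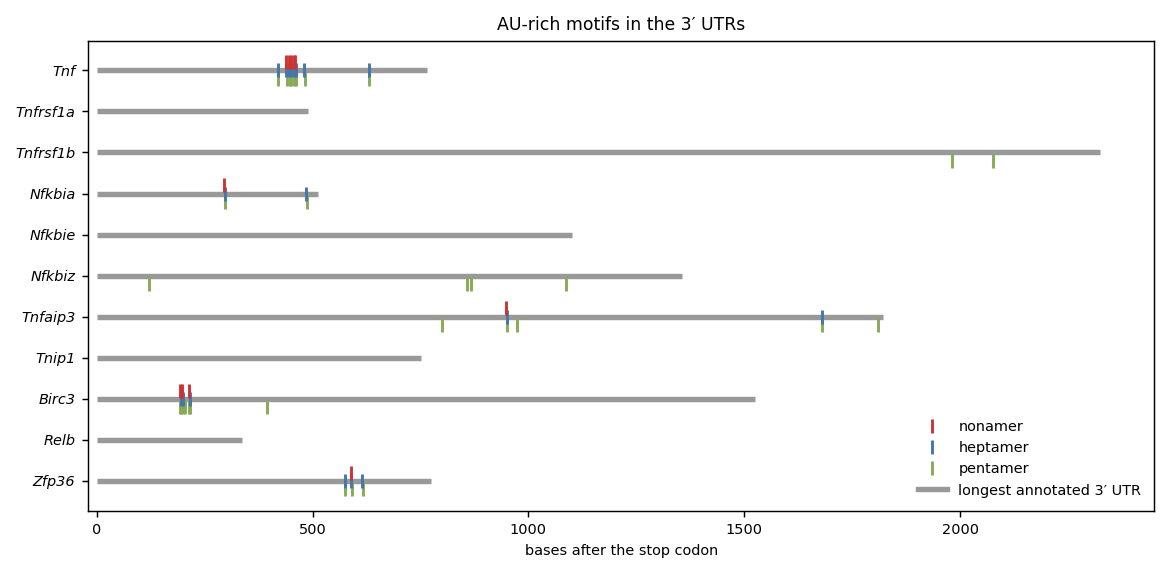
Positions of nonamers, heptamers and pentamers along the longest annotated 3′ UTR of the 10 genes and of Zfp36 itself, in bases after the stop codon, with grey bars to scale. The 5 nonamers of Tnf lie between bases 438 and 460 after the stop codon, and Tnfrsf1a, Tnip1, Nfkbie and Relb show no motif.

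Tnf (chromosome 17, 35199381 to 35202007, minus strand, GRCm38) encodes the ligand. In DK14 tumors it stood at 55, 129 and 228 CPM, and in FlFl tumors at 35.6, 17.7 and 25.6 CPM. Every DK14 tumor was higher than every FlFl tumor, with a log2 fold change of 2.27 (SE 0.49) and an adjusted p of 0.183 in edgeR's quasi-likelihood test, which misses the threshold of 0.05. DESeq2 and edgeR's exact test called the difference, with adjusted p of 0.000887 and 0.00229. Without FlFl tumor replicate 1 the quasi-likelihood test called it too, at 2.57 with an adjusted p of 0.00607. That fit called 16.9% of all genes. Leaving out any other tumor library did not call Tnf. In these sorted bulk samples, fewer cells of a type and less RNA per cell cannot be told apart.

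Before tumors the genotypes overlapped. Treated skin held 14.2, 10.3 and 19.4 CPM of Tnf in FlFl and 41.6, 22.1 and 14.2 CPM in DK14, a log2 difference of 0.79 (SE 0.40, adjusted p = 0.904). Mock skin held 17.5, 3.73 and 3.38 CPM in FlFl and 32.2 and 3.97 CPM in DK14, and replicate 1 of both genotypes was the high library. The mock difference of 1.09 (SE 1.11) turned to -1.09 without DK14 mock replicate 1. Averaged over the 3 stages, the genotype difference in Tnf was 1.45 (SE 0.44, adjusted p = 0.517). In this average 0 of 10 members were called by the quasi-likelihood test (0.011% of all genes) or by DESeq2 (0.296%), and 1, Tnf, had an unadjusted p under 0.05 (7.03% of all genes).

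Within DK14, Tnf rose from treated skin to tumors by a log2 fold change of 2.29 (SE 0.53, adjusted p = 0.0108). Within FlFl the same step was 0.78 (SE 0.34, adjusted p = 0.13) with overlapping groups. The difference between these changes was 1.54 (SE 0.70, adjusted p = 0.37), so a larger change in DK14 did not pass its own test. Against mock skin the tumor values were 2.79 (SE 0.92) in DK14 and 1.61 (SE 0.69) in FlFl. Every tumor library of both genotypes exceeded its mock libraries, in FlFl by a margin of 17.7 against 17.5 CPM. In this way 28.6% of all genes were higher in DK14 tumors and 15.5% in FlFl tumors. Neither Tnf value passed in the quasi-likelihood test, with adjusted p of 0.0853 and 0.186. DESeq2 and the exact test called Tnf in DK14, with adjusted p of 0.00542 and 0.0219, and did not call it in FlFl. Without mock replicate 1, the DK14 value was 5.06, with 1 mock library left. The FlFl value was then 2.86 and was called by the quasi-likelihood test, with an adjusted p of 0.00551. In the order of group means, only DK14 tumors were separated from the next group, and the ranges of all other neighbours overlapped.

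Tnf is also made by leukocytes, so leukocyte markers were read in the same libraries. The summed level of 17 such markers was 66.3 to 95.2 CPM in DK14 tumors and 22.2 to 39.1 CPM in FlFl tumors. In DK14 tumors most of it was Cd74, a chaperone of MHC class II that keratinocytes can also make, and without Cd74 the remaining 16 genes summed to 11.4 to 13.4 CPM in DK14 tumors and 10.5 to 12.8 CPM in FlFl tumors. Of the 17 markers, Cd74, Cd68 (1.86 to 9.4 CPM) and Csf1r (1.7 to 5.32 CPM) were above 0 in every library and Itgam and Lyz2 in all but 1 each, while Ms4a1 was at 0 in all 17 libraries, Cd3e in 13, Ly6g in 12 and Ptprc in 4. Fibroblast markers summed to 36.7 to 407 CPM in DK14 tumors and 89.5 to 208 CPM in FlFl tumors. The part of Cd74-expressing cells in the Tnf level was not tested.

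**Figure D3:**
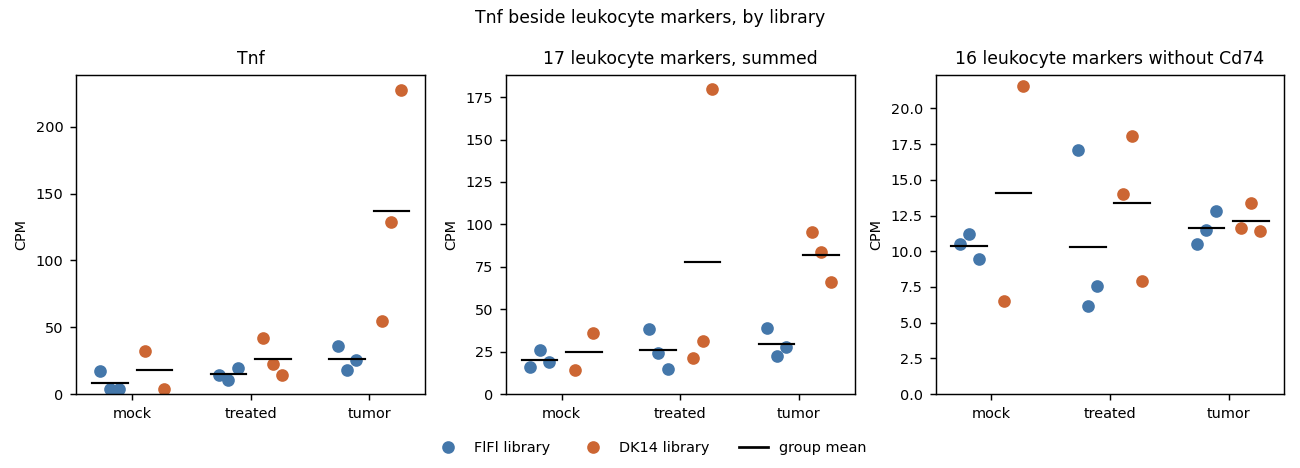
Level of Tnf, the summed level of 17 leukocyte markers and the same sum without Cd74, in CPM from 0, with 1 point per library and a bar at the group mean. Tnf and the full sum are highest in DK14 tumors apart from 1 treated DK14 library at 180 CPM of markers, while the sum without Cd74 lies between 10.5 and 13.4 CPM in all 6 tumor libraries.

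Tnfrsf1b (chromosome 4, 145213463 to 145246870, minus strand), the inducible receptor, was nearly silent outside tumors. Its 3 mock FlFl libraries held 3, 7 and 6 counts, and the mock DK14 libraries 1 and 0 counts. Treated skin held 10, 4 and 5 counts in FlFl and 0, 8 and 8 counts in DK14. A count of 0 allows up to 1.08 CPM in the mock DK14 library and up to 0.538 CPM in the treated DK14 library (3 counts, counting error only), and the gene was too low to be tested between these groups.

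FlFl tumors held 11, 25 and 13 counts of Tnfrsf1b and DK14 tumors 53, 162 and 171 counts, or 4.53 ± 0.883 CPM and 24.6 ± 11.1 CPM (SD, n = 3 each). From treated skin to tumors it rose in both genotypes, by 2.27 (SE 0.42, adjusted p = 0.0098) in FlFl and by 4.76 (SE 0.66, adjusted p = 0.00148) in DK14. The summed counts gave a ratio of 4.76 in FlFl (exact 95% interval 2.75 to 8.57) and of 30.3 in DK14 (18.4 to 53.5), intervals that cover counting error only. Leaving out FlFl treated replicate 1 or 3 moved the adjusted p in FlFl to 0.0513 or 0.0502. The difference between the genotypes' changes was 2.52 (SE 0.89, adjusted p = 0.276).

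Against mock skin the receptor was called in DK14 (adjusted p = 0.0104), with a ratio of summed counts of 164 (interval 29.2 to 6490) that rests on 1 count in mock skin. Without DK14 tumor replicate 2 its adjusted p was 0.0619. In FlFl the fitted difference was 2.59 (SE 0.61, adjusted p = 0.0575), called by DESeq2 and by the exact test, and called without FlFl mock replicate 1 (2.24, adjusted p = 0.0416). Between genotypes within tumors it was 2.33 (SE 0.42, adjusted p = 0.167) with every DK14 tumor above every FlFl tumor, and DESeq2, the exact test and the fit without FlFl tumor replicate 1 called it, with adjusted p of 0.000362, 0.000462 and 0.00374. Endothelial markers, which often accompany this receptor, summed to 17.7 to 33.2 CPM in DK14 tumors and 19.2 to 40.3 CPM in FlFl tumors.

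Tnfrsf1a (chromosome 6, 125349362 to 125362484, plus strand), the broadly expressed receptor, lay between 47.4 and 137 CPM over all libraries and no neighbouring groups in its order were separated. In tumors it was 87.2 ± 11.6 CPM in DK14 and 96.6 ± 12.9 CPM in FlFl (SD, n = 3 each), a log2 difference of -0.28 (SE 0.19, adjusted p = 0.538). The lowest values, 47.6 and 47.4 CPM, came from replicate 1 of the mock groups. From treated skin to tumors it stepped by 0.38 (SE 0.19, adjusted p = 0.151) in DK14. All DK14 tumors were higher, which held for 28.4% of all genes. In FlFl the step was 0.38 (SE 0.22, adjusted p = 0.236), and the groups overlapped.

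The IkB family followed no common course. Nfkbia (IkB-alpha, chromosome 12, 55489410 to 55492647, minus strand), the classic feedback inhibitor that returns NF-kB to the cytoplasm, ranged from 359 to 901 CPM. DK14 tumors held 490, 737 and 811 CPM and FlFl tumors 579, 390 and 382 CPM, which overlap, with a difference of 0.46 (SE 0.25, adjusted p = 0.447). Treated skin gave 565, 457 and 564 CPM in DK14 and 359, 534 and 386 CPM in FlFl, a difference of 0.29 (SE 0.20, adjusted p = 0.914). No neighbouring groups were separated in the order of its means.

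Nfkbie (IkB-epsilon, chromosome 17, 45555703 to 45563169, plus strand) was the scarcest of the 3 IkB genes among the members. FlFl tumors held 6.52, 2.44 and 2.29 CPM against 8.69, 10.1 and 11.8 CPM in treated FlFl skin, and the gene fell by 1.59 on the log2 scale (SE 0.44, adjusted p = 0.0343). That call was lost without any 1 of 5 of the 6 libraries, with adjusted p of 0.0955 to 0.118, and held without FlFl tumor replicate 1. In DK14 the step was -0.50 (SE 0.43, adjusted p = 0.389), from 13.3, 10.7 and 5.24 CPM in treated skin to 4.70, 6.35 and 11.2 CPM in tumors. The genotypes' changes differed by 1.12 (SE 0.65, adjusted p = 0.485). Between genotypes in tumors, Nfkbie was called without FlFl tumor replicate 1 (1.52, adjusted p = 0.0397).

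Nfkbiz (IkB-zeta, chromosome 16, 55811375 to 55838899, minus strand), a nuclear IkB that works as a coactivator and is known from psoriasis-like inflammation, went in opposite directions in the genotypes. FlFl tumors held 373, 496 and 459 CPM and treated FlFl skin 246, 301 and 233 CPM, so that all tumors were higher. DK14 tumors held 208, 284 and 256 CPM and treated DK14 skin 349, 380 and 384 CPM, so that all tumors were lower. The change was 0.75 (SE 0.19, adjusted p = 0.0275) in FlFl and -0.67 (SE 0.18, adjusted p = 0.0181) in DK14, both short of a 2-fold change. Groups without overlap were common in these comparisons, with 21.9% of all genes higher in FlFl tumors and 23.8% lower in DK14 tumors in this way. On library totals alone, which moved the median of all genes down, the FlFl value was 0.29 (adjusted p = 0.376) and the DK14 value -1.12 (adjusted p = 0.00186), which passed the 2-fold threshold.

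The difference between these changes in Nfkbiz was -1.40 (SE 0.25, adjusted p = 0.124) in the quasi-likelihood test. DESeq2 called it with an adjusted p of 1.62e-05, as did the quasi-likelihood test without FlFl tumor replicate 1 (-1.51, adjusted p = 0.00326). Between genotypes, Nfkbiz was 0.97 lower in log2 in DK14 tumors, written as a difference of -0.97 (SE 0.21, adjusted p = 0.183), and 0.49 higher (SE 0.16, adjusted p = 0.897) in DK14 treated skin, with no overlap in either stage. Its mock levels of 267, 361 and 494 CPM in FlFl and 307 and 645 CPM in DK14 overlapped with each other.

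Tnfaip3 (A20, chromosome 10, 19000910 to 19015657, minus strand), which edits ubiquitin chains on signalling proteins below TNFR1, was highest in mock skin. Mock FlFl libraries held 289, 944 and 1680 CPM and mock DK14 libraries 383 and 968 CPM, with replicate 1 the lowest of each group. Treated skin held 269, 372 and 242 CPM in FlFl and 339, 309 and 309 CPM in DK14. Tumors held 338, 138 and 108 CPM in FlFl and 201, 344 and 296 CPM in DK14. Against mock skin, the log2 values were -1.70 (SE 0.58, adjusted p = 0.825) for treated FlFl skin, -2.36 (SE 0.69, adjusted p = 0.0866) for FlFl tumors, -1.09 (SE 0.42, adjusted p = 0.99) for treated DK14 skin and -1.36 (SE 0.43, adjusted p = 0.0765) for DK14 tumors.

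None of these 4 values for Tnfaip3 passed in the quasi-likelihood test. Without mock replicate 1, 3 of them did: -2.13 in treated FlFl skin (adjusted p = 0.00314), -2.78 in FlFl tumors (adjusted p = 0.0119) and -1.82 in DK14 tumors (adjusted p = 0.00215). Genes of handling and dissociation were also highest in the mock libraries other than replicate 1. The summed level of 10 immediate early and heat shock genes was 8110, 11000 and 9880 CPM in the mock libraries other than replicate 1, 5330 and 5530 CPM in mock replicate 1, and 3960 to 5510 CPM in tumors. In treated skin it was 4840 to 7310 CPM in FlFl and 4170 to 7020 CPM in DK14. DK14 treated replicates 2 and 3 held 4170 and 7020 CPM, with Tnfaip3 at 309 CPM in both. The part of these 10 genes in the Tnfaip3 levels was not tested. Between genotypes in tumors Tnfaip3 differed by 0.40 (SE 0.41, adjusted p = 0.695), and by 1.07 (adjusted p = 0.0103) without FlFl tumor replicate 1.

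Tnip1 (ABIN1, chromosome 11, 54910785 to 54962917, minus strand), an adaptor that brings A20 to ubiquitin chains, had group means of 22.0 to 39.4 CPM. It was 43.6 and 46.5 CPM in DK14 tumor replicates 2 and 3, above the FlFl tumors at 21.1 to 32.2 CPM, and 25.3 CPM in replicate 1, which lay within them. The genotype difference in tumors was 0.44 (SE 0.29, adjusted p = 0.52), and the step from treated skin in DK14 was 0.71 (SE 0.30, adjusted p = 0.0916). An antisense pseudogene, Gm12230, lies inside the gene, and since the use of strand is not stated, their reads cannot be told apart.

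Birc3 (cIAP2, chromosome 9, 7848699 to 7873186, minus strand), a ubiquitin ligase of the receptor complex and an NF-kB target, stood at 48.8, 92.9 and 92.1 CPM in DK14 tumors and 44.7, 47.5 and 33.1 CPM in FlFl tumors. These groups did not overlap, by a margin of 48.8 against 47.5 CPM, and differed by 0.76 (SE 0.28, adjusted p = 0.3). From treated skin the values were 1.15 (SE 0.49, adjusted p = 0.096) in DK14, where treated libraries held 12, 27.3 and 59.8 CPM, and 0.76 (SE 0.30, adjusted p = 0.0955) in FlFl. Without DK14 treated replicate 3 the step in DK14 was called at 1.87 (adjusted p = 0.00859). In mock skin Birc3 was 11.8 and 13.5 CPM in replicate 1 of FlFl and DK14 and 69.2 CPM or more in the other libraries.

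Relb (chromosome 7, 19606217 to 19629438, minus strand), the subunit of the noncanonical NF-kB dimer, had the smallest genotype difference of the 10 genes in tumors, with 18.3 ± 4.8 CPM in FlFl and 18.7 ± 4.72 CPM in DK14 (SD, n = 3 each). The fitted difference was -0.11 (SE 0.29, adjusted p = 0.893), opposite in sign to these means, and its sign changed in 4 of the alternative fits. Over all libraries it ran from 12.7 to 33.2 CPM, with mock replicates 2 and 3 the highest.

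Comparing genotypes across the group, no member was called at any stage by the quasi-likelihood test (adjusted p under 0.05 and over 2-fold). In tumors 0 of 10 were called, where 0.0284% of all genes tested were, and 4 of 10 had an unadjusted p under 0.05, where 14% of all genes did. DESeq2 and the exact test each called 2 of 10, Tnf and Tnfrsf1b, beside 2.6% and 2.62% of all genes. Without FlFl tumor replicate 1, 5 of 10 were called (Tnf, Tnfrsf1b, Tnfaip3, Nfkbie and Nfkbiz), beside 16.9% of all genes. Fits without any other tumor library called 0 of 10. The FlFl tumors left without replicate 1 held 9390 and 10800 CPM of keratinocyte markers, against 25900 to 26300 CPM in DK14 tumors. The part of this difference in those calls was not tested. Tumor groups did not overlap for 3 members higher in DK14 (Tnf, Tnfrsf1b and Birc3) and 1 lower (Nfkbiz), against 13.6% and 4.23% of all genes. The median log2 difference over the 10 genes was 0.45, and -0.02 over all genes.

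In treated skin 0 of 9 tested members were called (all genes 0.00616%), 1 had an unadjusted p under 0.05 (Nfkbiz, all genes 5.55%), DESeq2 and the exact test called 0 (all genes 0.222% and 0.271%), and the median was 0.17 against 0.02 over all genes. Nfkbiz was the 1 member with no overlap there, higher in DK14, as were 5.77% of all genes. In mock skin 0 of 9 were called by the quasi-likelihood test (all genes 0%), DESeq2 (0.0188%) or the exact test (0.0126%), 0 had an unadjusted p under 0.05 (1.59%), and the median was -0.07 against -0.03. The deleted gene Zfp36 was not called by the quasi-likelihood test in mock skin either, at -4.13 (SE 0.86) with no overlap. The absence of calls there therefore does not show equal levels. The 9 members are those that passed a filter on low counts, which Tnfrsf1b did not.

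**Figure D4:**
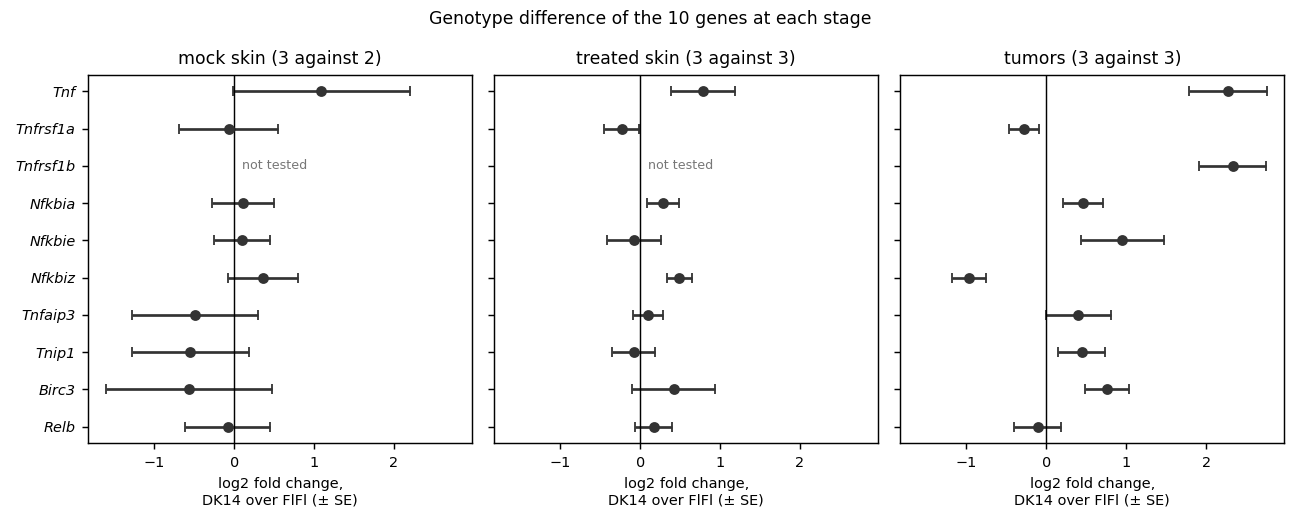
Fitted log2 fold change of DK14 over FlFl for the 10 genes in mock skin, treated skin and tumors, with bars of 1 SE. In tumors Tnf (2.27) and Tnfrsf1b (2.33) lie far to the right and Nfkbiz (-0.97) to the left, while in mock skin every value but Tnf (1.09) lies between -0.57 and 0.36.

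Comparing tumors with treated skin, 2 of 10 members were called in DK14, Tnf and Tnfrsf1b, both higher (26% of all genes were called, 10.5% higher and 15.5% lower). In FlFl 2 of 10 were called, Tnfrsf1b higher and Nfkbie lower (18% of all genes, 7.5% higher and 10.5% lower). These shares of all genes are large, so 2 of 10 is near the background. Tnfaip3 stepped by -0.63 (SE 0.41, adjusted p = 0.28) in FlFl, by -1.27 (adjusted p = 0.00343) there without tumor replicate 1, and by -0.28 (SE 0.21, adjusted p = 0.32) in DK14. Of the 10 differences between the genotypes' changes, 0 were called by the quasi-likelihood test (0.0118% of all genes), 3 had an unadjusted p under 0.05 (Tnf, Tnfrsf1b and Nfkbiz, all genes 13.2%), and DESeq2 called 1, Nfkbiz (all genes 1.35%).

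**Figure D5:**
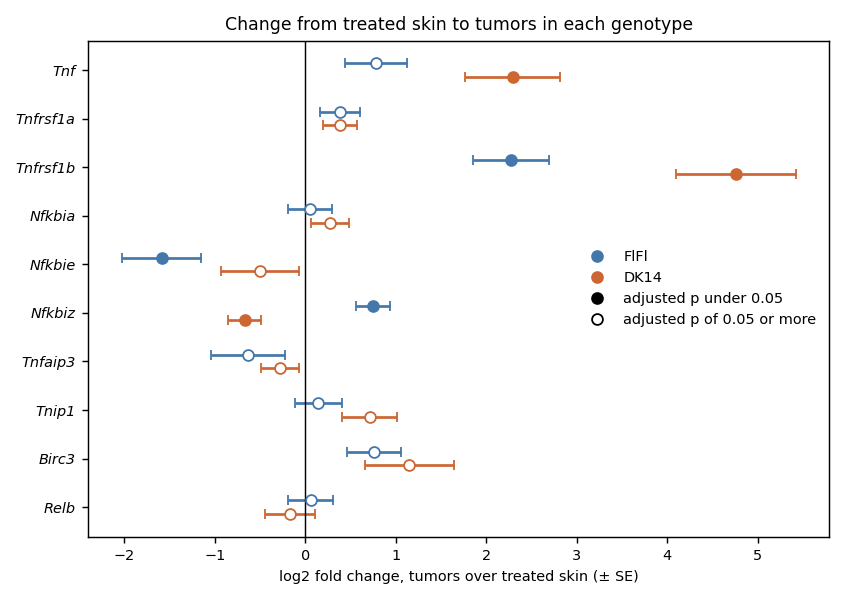
Fitted log2 fold change of tumors over treated skin in FlFl and DK14 for the 10 genes, with bars of 1 SE and filled points for an adjusted p under 0.05. Nfkbiz lies at 0.75 in FlFl and -0.67 in DK14, and Tnfrsf1b lies furthest to the right in both (2.27 and 4.76).

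Comparing tumors with mock skin, Tnfrsf1b was the 1 member of 10 called in DK14 (all genes 14.3%) and 0 of 10 were called in FlFl (all genes 4.11%). In FlFl 4 members had an unadjusted p under 0.05 (all genes 26.2%), and DESeq2 (14.3%) and the exact test (13.4%) called 2 each, Tnfaip3 and Tnfrsf1b. In DK14 4 had an unadjusted p under 0.05 (all genes 34.4%). There DESeq2 (18.7%) and the exact test (22.4%) called 3 each, Tnf, Tnfaip3 and Tnfrsf1b. Without mock replicate 1, 5 members were called in FlFl (Tnf, Tnfrsf1b, Tnfaip3, Birc3 and Tnip1, all genes 21%) and 4 in DK14 (Tnf, Tnfrsf1b, Tnfaip3 and Nfkbiz, 28.1%). Nfkbiz was -1.02 (SE 0.35, adjusted p = 0.0942) in DK14, -1.40 (adjusted p = 0.00321) there without mock replicate 1, and 0.21 (SE 0.30, adjusted p = 0.687) in FlFl, and Nfkbie was -1.34 (SE 0.51, adjusted p = 0.149) in FlFl and -0.44 (SE 0.46, adjusted p = 0.533) in DK14. The genotypes' tumor changes from mock skin differed by 4.43 (SE 1.18, adjusted p = 0.535) for Tnfrsf1b and by -1.22 (SE 0.46, adjusted p = 0.572) for Nfkbiz, and 0 of 10 members were called by the quasi-likelihood test (all genes 0%) or DESeq2 (0.178%), while 2 had an unadjusted p under 0.05 (8.18%). Comparing treated with mock skin, 0 of 9 members were called in either genotype by the quasi-likelihood test, DESeq2 or the exact test. All genes were called at 0% by the first, at 0.711% and 0.626% by the others in FlFl and at 0.447% and 0.422% in DK14. In each genotype 1 member, Tnfaip3, had an unadjusted p under 0.05 (all genes 5.5% in FlFl and 4.8% in DK14). The treated values for Tnf were 0.83 (SE 0.68, adjusted p = 0.916) in FlFl and 0.50 (SE 0.83, adjusted p = 1) in DK14, and Birc3 was -1.35 (SE 0.71, adjusted p = 0.888) in FlFl. Without FlFl mock replicate 1, 4 of the FlFl members were called (Tnf at 2.09, Tnfaip3 at -2.13, Birc3 at -1.84, and Tnip1), beside 15.1% of all genes.

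The wider pathway was read from 4 lists. Of 16 genes that NF-kB is known to induce, 14 were tested in tumors against treated skin, and 9 rose and 1 fell in FlFl (all genes 7.5% and 10.5%) while 8 rose and 0 fell in DK14 (10.5% and 15.5%). Their median log2 fold change was 1.39 in FlFl and 1.69 in DK14, against -0.02 and -0.03 over all genes. The neutrophil chemokine Cxcl1 rose by 4.24 (SE 0.25, adjusted p = 0.000446) in FlFl and by 4.99 (SE 0.51, adjusted p = 0.000444) in DK14. Cxcl2, of the same family, rose by 6.99 (SE 0.84, adjusted p = 0.00243) and 6.78 (SE 0.59, adjusted p = 0.000255). The monocyte chemokine Ccl2, the chemokine Ccl20, the adhesion molecule Icam1, the survival factor Ier3 and the prostaglandin synthase Ptgs2 also rose in both. Sod2, a mitochondrial dismutase, and Lcn2, an iron-binding antibacterial protein, rose in FlFl, Tnfaip2 rose in DK14, and the survival gene Bcl2l1 fell in FlFl. Over 14 alternatives in FlFl, Ccl2, Cxcl1, Cxcl2 and Icam1 were called in all 14. Ccl20 was called in 8, Sod2 in 9, and Ier3, Lcn2 and Ptgs2 in 10 each. FlFl tumors ran from 90.1 to 1777 CPM for Ptgs2 and from 5.52 to 617 CPM for Lcn2. Against mock skin 4 of 14 targets rose in FlFl (2.22% of all genes) and 8 of 14 in DK14 (7.05%), and 0 fell. Over 15 alternatives the number called in FlFl ran from 0 to 9. The counts of the genotypes were not tested against each other.

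Between genotypes in tumors 0 of 14 NF-kB targets were called by the quasi-likelihood test, and 6 had an unadjusted p under 0.05 (14% of all genes). Over 14 alternatives, 0 to 9 were called. Cxcl1 was 963 ± 434 CPM in DK14 and 262 ± 21.3 CPM in FlFl tumors, a difference of 1.73 (SE 0.35, adjusted p = 0.175), and Ier3 was 900 ± 410 CPM and 235 ± 68.7 CPM, a difference of 1.8 (SE 0.38, adjusted p = 0.183). Tnfaip2 differed by 3.57 (SE 0.86, adjusted p = 0.201) and Ccl2 by 1.58 (SE 0.45, adjusted p = 0.232). In each of these 4 all DK14 tumors were above all FlFl tumors. The remaining 2 of the 6 were lower in DK14, Lcn2 by a difference of -3.26 (SE 1.14, adjusted p = 0.274) with overlapping groups and Sod2 by -0.50 (SE 0.19, adjusted p = 0.305) with all DK14 tumors lower. In treated skin 13 of 14 targets had a positive difference, with a median of 0.71 against 0.02 over all genes and 0 called, and Icam1 differed by 0.84 (SE 0.19, adjusted p = 0.816).

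The components of the pathway were read in the same way. Of 14 genes of the TNF receptor complex, 4 fell and 0 rose from treated skin to FlFl tumors, beside 10.5% and 7.5% of all genes. These were Birc2, Tab1, Traf1 and Fadd, called in 11, 8, 5 and 7 of 14 alternatives. Over those alternatives 0 to 4 genes of the list were called. In DK14, 13 were tested and 2 fell (Birc2 and Traf5) and 1 rose (Tradd), beside 15.5% and 10.5% of all genes. Birc2, the constitutive relative of Birc3, fell in both genotypes, by 1.2 (SE 0.25, adjusted p = 0.0141) in FlFl and by 1.13 (SE 0.26, adjusted p = 0.0114) in DK14. Tradd, the adaptor that docks on TNFR1, rose by 1.06 (SE 0.27, adjusted p = 0.0161) in DK14. Of 12 IKK, NF-kB and IkB genes, Bcl3, an IkB-like coactivator, rose in both genotypes, by 1.72 (SE 0.40, adjusted p = 0.0203) in FlFl and 1.44 (SE 0.48, adjusted p = 0.0427) in DK14. The kinase Map3k8 rose in FlFl, and in DK14 the NF-kB subunit Rela rose and the nuclear IkB Nfkbid fell. Over 14 alternatives Map3k8 was called in 6, and Rela and Nfkbid in 11 each. Bcl3 was called in 10 in FlFl and in 8 in DK14.

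Nfkbid encodes a nuclear IkB, as Nfkbiz does, and fell by 1.26 on the log2 scale (SE 0.37, adjusted p = 0.0263) from treated skin to DK14 tumors. Its means were 5.57 and 6.95 CPM in treated FlFl skin and FlFl tumors, and 9.64 and 4.33 CPM in treated DK14 skin and DK14 tumors. The genotypes' changes differed by -1.56 (SE 0.50, adjusted p = 0.252). Of 13 other ubiquitin brakes, 12 were tested in FlFl and Rnf11, a partner of A20, rose by 1.43 (SE 0.24, adjusted p = 0.00683). In DK14 Rnf11 (1.19, SE 0.28, adjusted p = 0.0117) and Tnip3 rose while Rnf31, a subunit of the linear ubiquitin ligase, fell. Over 14 alternatives in DK14, Rnf11 was called in 12, Rnf31 in 8 and Tnip3 in 7. In none of the 3 component lists was a gene called between genotypes at any stage, and in tumors 1, 1 and 0 genes of the receptor, IKK and ubiquitin lists had an unadjusted p under 0.05 (Tradd and Map3k8), beside 14% of all genes.

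The promoters of the feedback genes are shown because NF-kB acts there. The kB consensus was searched by name on both strands, with overlaps allowed, in RefSeq windows (GRCm38.p6) from 250 bases before to 50 bases after each start site. Of 32851 windows, 8.46% held a match. Matches were found for Nfkbia, Nfkbie, Tnfaip3 and Tnip1, and none was found in the windows of Tnf, Tnfrsf1a, Tnfrsf1b and Birc3, which says only that these letters are absent from those windows. Nfkbiz and Relb were not matched to a window. The matched stretches follow 5′ to 3′ on the strand of the gene, with the match in capitals, and for Tnip1 the middle of 3 overlapping matches is given.
Nfkbia, chr12:55492657-55492686: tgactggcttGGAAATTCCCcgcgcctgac
Nfkbie, chr17:45555584-45555613: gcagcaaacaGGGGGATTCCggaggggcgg
Tnfaip3, chr10:19015403-19015432: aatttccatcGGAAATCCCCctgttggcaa
Tnfaip3, chr10:19015516-19015545: gactcacgcgGGGACACCCCggggcgggac
Tnip1, chr11:54962978-54963007: tccatcatggGGGAATTCCCctcctgcctc

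In DK14 tumors against FlFl tumors the differences of the 4 genes with a match were 0.46 (Nfkbia), 0.95 (Nfkbie, SE 0.52, adjusted p = 0.443), 0.40 (Tnfaip3) and 0.44 (Tnip1), none of which was called. The 4 genes with an AU-rich heptamer differed by 2.27 (Tnf), 0.76 (Birc3), 0.46 (Nfkbia) and 0.40 (Tnfaip3). The 6 without one differed by 2.33 (Tnfrsf1b), 0.95 (Nfkbie), 0.44 (Tnip1), -0.11 (Relb), -0.28 (Tnfrsf1a) and -0.97 (Nfkbiz).

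By pattern over the 17 libraries, the genes most like Tnf among 18252 genes were Plau (Pearson's r = 0.960), Igf2r (0.952), Tmsb10 (0.946), Cdc34 (0.942) and Lrrc8c (0.939). Among those most like Nfkbia were Tprn (0.912), Wbp2 (0.862), Wls (0.861) and Sik1 (0.858). These r were taken on log2 CPM with a prior count of 2 and are a description, since libraries of a group share stage, genotype and scaling.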

How the data were processed

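RNA-seq libraries (Ovation SoLo) of sorted epidermal cells were analyzed from raw counts per Ensembl gene as deposited by the authors. The submitters' processing notes name mm10, Trimmomatic 0.36, STAR 2.5.3, HTSeq 0.9.1 and DESeq2, without their roles. Use of strand, annotation and duplicate removal are not given in the sources used here. PCR duplicates are not independent molecules, so counting intervals cover counting error only. Counts were fitted in R 4.3.3 with edgeR 4.0.16 (filterByExpr, TMM, quasi-likelihood F test, two-sided, Benjamini-Hochberg), on the libraries of the groups compared. Genes were called when they changed over 2-fold with an adjusted p below 0.05. An interaction is a difference of 2 changes over 4 groups. DESeq2 1.42.0, edgeR's exact test, other scalings and filters, and fits without each library were alternatives. The procedures were tested on simulated data. Those counts were drawn independently for each library, with no library set apart as some are in the real data. The error rates hold for that setting only. For the genotype difference in tumors, 32 of 205 DESeq2 calls and 16 of 185 quasi-likelihood calls were wrong. For the interaction of tumors against treated skin these were 36 of 184 and 9 of 131. With no change simulated in tumors, DESeq2 called 13 genes and the quasi-likelihood test 0. The exact test was not simulated. The members, lists and rule for naming genes (all members, called list genes, up to 4 others by smallest p) were chosen with earlier results of these data known. Not every gene that met the rule is reported. Positions and UTRs came from GENCODE M21, promoters from RefSeq.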

Additional observations from a re-analysis of the deposited data

Results flagged for a closer look

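Nfkbiz changed in opposite directions from treated skin to tumors, up in every FlFl tumor and down in every DK14 tumor, with groups that did not overlap in either genotype. The gene was flagged for this pattern, so the pattern is not separate support. Of all genes, 21.9% were higher in FlFl tumors and 23.8% lower in DK14 tumors without overlap, and the share with both was not counted. On library totals alone the FlFl change was 0.29 (adjusted p = 0.376 in the quasi-likelihood test). The change in DK14 minus the change in FlFl was -1.40 on the log2 scale (SE 0.25, adjusted p = 0.124 in edgeR's quasi-likelihood test). Over 12 fits that each left out 1 library the difference ran from -1.51 to -1.27.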

How the results depend on the processing

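The number of members called moved by more than 1.5 times in these alternatives. For the genotype difference in tumors it was 2 with DESeq2, the exact test or no low-count filter, instead of 0. For FlFl treated against mock skin it was 4, instead of 0, with a term for mock replicate 1. For FlFl tumors against mock skin it was 1 with library totals alone, 2 with DESeq2 or the exact test, 3 without the filter or in a single fit, and 5 with that term, instead of 0. For DK14 tumors against mock skin it was 2 in a single fit, 3 with library totals, DESeq2, the exact test or no filter, and 4 with that term or with the identical columns as separate libraries, instead of 1. Without the filter it was 1 for the interaction of tumors against mock skin, 3 for that against treated skin (1 with DESeq2) and 1 for the genotype averaged over stages (Tnf), each instead of 0. In tumors against treated skin the number went from 2 to 3 in DK14 with DESeq2 or no filter (Birc3) and with library totals (Nfkbiz), and in FlFl with library totals (Tnfaip3). Leaving out 1 library gave 0 to 5 members for the genotype in tumors, 0 to 4 for FlFl treated against mock, 0 to 5 for FlFl tumors against mock, 0 to 3 against treated, 0 to 4 for DK14 tumors against mock, 2 to 3 against treated, 0 to 1 for the interaction of tumors against treated skin and 0 in every fit of the other comparisons. The causes were not tested.

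Replicate numbers do not mark a shared animal or batch in the labels, and same-numbered tumors of the genotypes correlated at 0.14, 0.25 and -0.07. Treated skin lay beside papillomas, and whether treated and tumor libraries share animals is not stated. The reported fits treat them as independent. Same-numbered treated and tumor libraries correlated at -0.01, -0.29 and 0.07 in FlFl and at 0.09, 0.17 and -0.03 in DK14. The same-numbered mock libraries, only 2 pairs, correlated at 0.78 and 0.57, and FlFl mock replicate 3 correlated at 0.72 with DK14 mock replicate 2. FlFl mock replicate 1 correlated at 0.78 and -0.78 with DK14 mock replicates 1 and 2. Such mirrored values show correlations of deviations from the group mean, so the mock pairs are not independent. In mock skin the block raised the genes called between genotypes from 0 to 110, with 0 members among them. With the replicate number as a block, FlFl tumors against treated skin called 1 member instead of 2 (Nfkbie was lost, at -1.61 with an adjusted p of 0.08), and Birc3 was called in DK14 tumors against treated skin at 1.35. The block moved no other count of members called.

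Signs changed for 8 fitted values. Relb in tumors was 0.07 without the filter, 0.03 in a single fit and between -0.29 and 0.10 with 1 library left out (0.10 without FlFl tumor replicate 2, 0.05 without DK14 tumor replicate 1). Nfkbiz in FlFl tumors against mock skin was -0.12 with library totals alone. With 1 library left out, Tnf ran from -1.09 (without DK14 mock replicate 1) to 2.41 for the genotype in mock skin, from -0.28 (without DK14 mock replicate 2) to 2.71 in DK14 treated against mock skin, and from -0.07 (without FlFl mock replicate 1) to 3.45 for the interaction of tumors against mock skin. Of 74 member values not printed, 49 changed sign in at least 1 alternative. Library totals alone moved the median of all genes to -0.42 and -0.50 in FlFl tumors against mock and treated skin and to -0.30 and -0.47 in DK14, and the genes called higher were 266 of 1234 instead of 342 of 632, 524 of 3697 instead of 1152 of 2764, 856 of 2654 instead of 1059 of 2144, and 930 of 4997 instead of 1608 of 3973. Over all alternatives, the genes called ranged from 0 to 2613 for the genotype in tumors (4 in the reported fit), from 30 to 3277 for FlFl tumors against mock skin (632), from 1106 to 4316 against treated skin (2764), from 101 to 4573 for DK14 tumors against mock skin (2144), from 0 to 2587 for FlFl treated against mock skin (0), from 0 to 212 in DK14 (0), from 0 to 110 for the genotype in mock skin (0) and 0 to 218 in treated skin (1), from 2 to 113 for its average (2), from 0 to 188 for the interaction of tumors against mock skin (0), and from 0 to 1352 for the interaction of tumors against treated skin (2). Birc3 held 1 heptamer instead of 3 in its shorter UTR. The NF-kB targets called in tumors against treated skin ranged from 5 to 10 in FlFl and 6 to 10 in DK14. The term for mock replicate 1 and the identical columns as separate libraries were chosen after seeing the data. Depth limits Tnfrsf1b outside tumors, where no library held more than 10 counts.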
